A study of Danio rerio with 35 samples.

Results

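The genes described here mark vascular smooth muscle and mural cells, the contractile and supporting cells that wrap blood vessels. They are acta2, tagln, myh11a, tpm2, rgs4, rgs5a, rgs5b, abcc9 and pdgfrb, picked by name. All 9 symbols were among the 14781 genes listed, and 8 had enough counts to test. RNA with poly(A) tails was sequenced from whole hearts of adult zebrafish, in 4 libraries of wild-type (WT) genotype and 4 of the genotype labelled klf1 overexpressing. Klf1 is a Krüppel-like transcription factor, and the series asks about renewal of adult heart muscle cells. The labels give neither the promoter and cell type that drove klf1 nor the strain, sex, clutch or number of pooled hearts. They do not say that libraries came from separate animals, so p-values measure the spread between libraries, which may be technical.

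Smooth muscle contracts when calcium activates myosin light chain kinase and smooth muscle myosin pulls on actin filaments. RGS proteins switch off the G proteins through which hormones set vessel tone. ATP-sensitive potassium (KATP) channels, built from an inward-rectifier pore and a sulfonylurea receptor, relax the vessel wall when they open. PDGF-B made by endothelium acts on the receptor PDGFRB to recruit pericytes. In zebrafish the outflow tract of the heart, the bulbus arteriosus, is rich in smooth muscle and elastin. Several of these genes have other sources in a heart: the receptor encoded by abcc9 is also part of the KATP channel of mammalian heart muscle, and acta2 and tagln are used by activated fibroblasts.

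The libraries held between 9829896 and 13083853 counts. TMM scaling factors were 0.75 to 0.83 for WT and 1.226 to 1.317 for klf1 libraries. Scaling by totals alone therefore shifts all fold changes upwards, and the median tested gene moves from 0.03 to 0.75 on the log2 scale. Of 10493 tested genes, 3377 were higher in klf1 hearts (32.2%) and 3084 lower (29.4%), 61.6% in all, with an adjusted p below 0.05 in the quasi-likelihood test of edgeR. With totals the split was 6836 higher and 1398 lower. For 57% of tested genes the levels of the genotypes were fully apart, with no overlap between libraries. WT 3 differed from the other WT libraries, with a chi-square per degree of freedom over genes of 36.2 to 43.1 against it. The other WT libraries gave 6.71 to 9.37 among themselves. Pairs of klf1 libraries gave 17.0 to 45.7, a range that holds the values of WT 3. Without WT 3 each tested member kept its direction and its side of the threshold. The targeted gene klf1 read 128 to 296 CPM in WT and 595 to 733 CPM in klf1 libraries (log2 fold change 1.58 ± 0.24 SE, edgeR adjusted p = 0.000126). CPM is the count normalised to library size, here with TMM scaling.

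The members did not move together. Of the 8 tested, 2 were higher in klf1 hearts (tagln and rgs5b), 4 were lower (tpm2, rgs4, rgs5a and abcc9) and 2 were not called (acta2 and myh11a). A count of 6 called out of 8 stands beside 61.6% of all tested genes. The median log2 fold change (klf1 minus WT) was -0.45 over the 8 and 0.03 over all tested genes. The 8 fold changes ran from -2.62 for abcc9 to 2.39 for tagln. In whole-heart RNA, fewer cells of a type and less RNA per cell cannot be told apart.

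**Figure D1:**
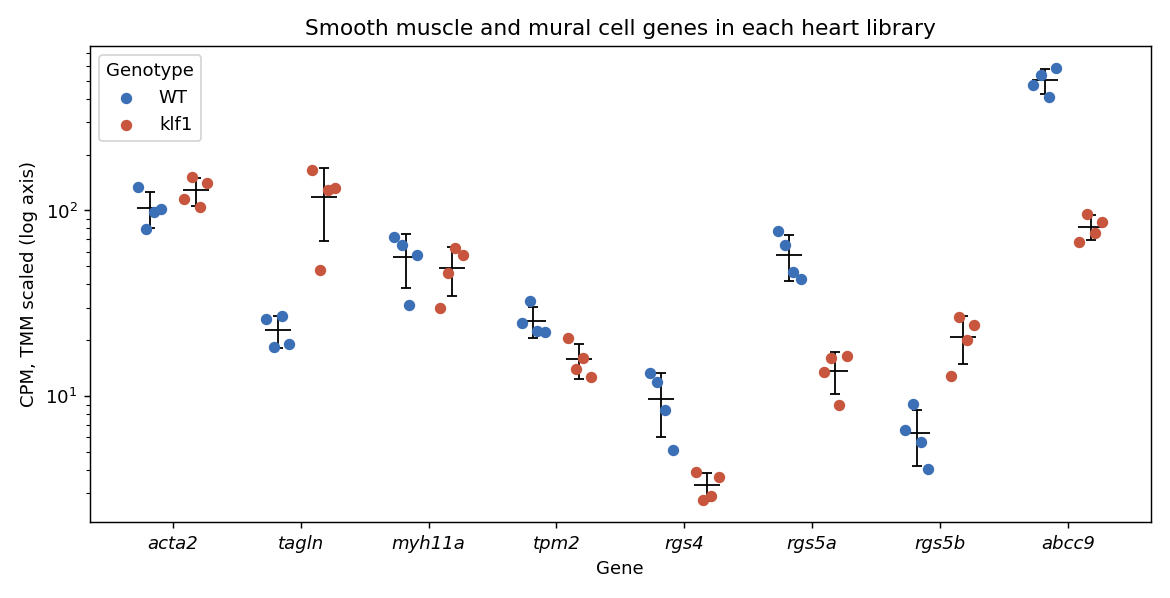
Level of each tested member in each library, in CPM on a log axis. Points are libraries (blue WT, red klf1), and black bars are the mean and SD over 4 libraries. The groups are apart for tagln, tpm2, rgs4, rgs5a, rgs5b and abcc9, and overlap for acta2 and myh11a.

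Among the contractile proteins, acta2 encodes the actin of vascular smooth muscle. It read 134, 79.1, 98.6 and 102 CPM in the libraries WT 1 to WT 4, and 115, 152, 105 and 141 CPM in klf1 1 to klf1 4. The groups overlapped, because WT 1 stood above 2 of the klf1 libraries. The means were 103 ± 22.9 and 128 ± 21.9 CPM (SD, n = 4), with a log2 fold change of 0.31 ± 0.18 (SE), a 95% interval from -0.08 to 0.69 and an edgeR adjusted p of 0.147. Without WT 1 the gene was called higher (0.46, edgeR adjusted p = 0.0405). With library totals as the scale it was also called higher (1.03, edgeR adjusted p = 0.000275), and the groups were then apart. Relative to the median gene of each scale, the difference was 0.28 under both.

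tagln encodes transgelin, an actin-binding protein that is an early marker of smooth muscle differentiation. WT libraries 1 to 4 read 25.9, 18.4, 27.02 and 19.1 CPM, and klf1 libraries 165, 47.7, 129 and 133 CPM. Every klf1 library was above every WT library, and klf1 2 was well below the other klf1 libraries. tagln rose from 22.6 ± 4.48 to 119 ± 49.9 CPM (SD, n = 4), or 5.24-fold, with a log2 fold change of 2.39 ± 0.32 (SE; edgeR adjusted p = 6.26e-05). A larger fold change was found for 6.14% of tested genes. Leaving out each library in turn kept the fold change between 2.17 and 2.64. In the same libraries 5 of 10 tested fibroblast markers were higher and 0 lower, beside 32.2% and 29.4% of all tested genes. The summed level of these markers ran from 1362 to 1834 CPM in WT and from 2124 to 5071 CPM in klf1. Among the higher markers, dcn went from 232 to 517 CPM and col1a1a from 285 to 745 CPM. The other 5 markers, dpt (-0.15) among them, were not called. The library with the most tagln, klf1 1, had the lowest col1a1a, col1a1b, col1a2, dcn, pdgfra and fn1b of the klf1 libraries. It also had the highest postnb, tcf21 and dpt, while lum was neither highest nor lowest there. The part of fibroblast RNA in the rise of tagln was not tested.

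myh11a encodes smooth muscle myosin heavy chain, the motor that defines mature smooth muscle. It read 72.2, 65.4, 30.9 and 57.6 CPM in WT 1 to WT 4, and 29.9, 46.2, 63.0 and 57.3 CPM in klf1 1 to klf1 4. The groups covered nearly the same range. Means were 56.5 ± 18.1 and 49.1 ± 14.6 CPM (SD, n = 4), and the log2 fold change was -0.20 ± 0.27 (SE; 95% interval -0.79 to 0.38; edgeR adjusted p = 0.534). With library totals it was 0.52 and also not called (edgeR adjusted p = 0.117). Reads of muscle myosins could be shared between family members by the authors' counting, so its level is uncertain.

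tpm2 encodes a tropomyosin, which lies along actin filaments of smooth and striated muscle. It read 24.7, 32.5, 22.3 and 22.3 CPM in WT and 20.5, 13.99, 16.0 and 12.7 CPM in klf1 libraries. The lowest WT libraries were just above the highest klf1 library. tpm2 fell from 25.5 ± 4.82 to 15.8 ± 3.43 CPM (SD, n = 4), a log2 fold change of -0.69 ± 0.18 (SE; edgeR adjusted p = 0.00503). With library totals the fold change was 0.02 (edgeR adjusted p = 0.913), so the fall holds only relative to the typical gene. The counts themselves overlapped, at 182 to 258 in WT and 213 to 278 in klf1 libraries. Actins and tropomyosins have near-identical paralogs, so the values of acta2 and tpm2 may include or lack reads of those copies.

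**Figure D2:**
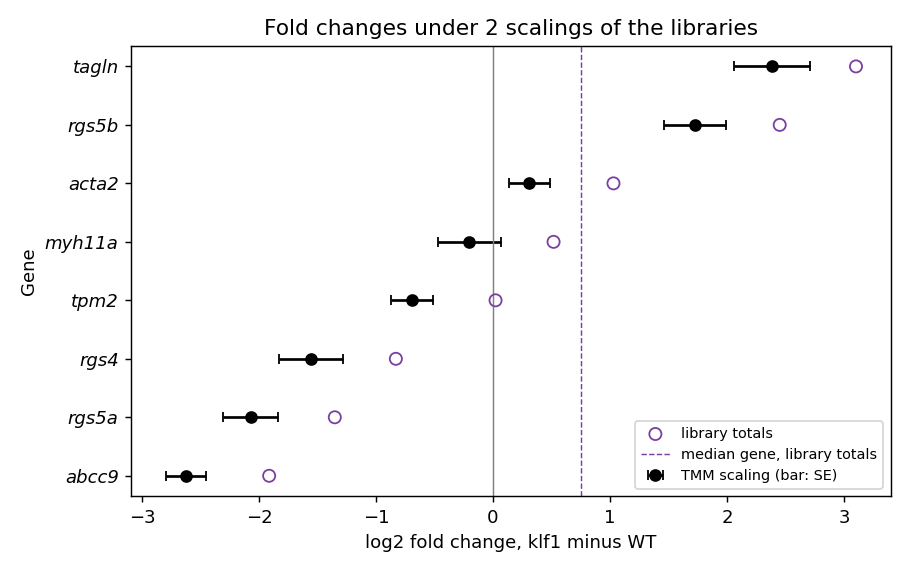
log2 fold change (klf1 minus WT) of the 8 tested members. Filled points are from TMM scaling with SE bars, open circles from library totals, and the dashed line is the median tested gene with library totals (0.75). The order of the members is the same under both scalings, and myh11a and tpm2 each change from below to above 0 with library totals.

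The 3 RGS members split. rgs5a and rgs5b are the zebrafish co-orthologs of mammalian RGS5, a classical pericyte marker that damps signalling through Gq and Gi. rgs5a read 77.6, 64.9, 46.5 and 42.8 CPM in WT and 13.4, 16.2, 8.98 and 16.4 CPM in klf1 libraries. All WT libraries were above all klf1 libraries, with a wide gap between the groups. rgs5a fell from 57.9 ± 16.3 to 13.8 ± 3.46 CPM (SD, n = 4), or 4.21-fold, with a log2 fold change of -2.07 ± 0.23 (SE; edgeR adjusted p = 9.64e-06).

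Its paralog moved the other way. rgs5b read 6.56, 9.07, 5.67 and 4.04 CPM in WT and 12.9, 26.7, 19.96 and 24.1 CPM in klf1 libraries. The groups did not overlap, and klf1 1 was the lowest of the klf1 libraries. rgs5b rose from 6.34 ± 2.10 to 20.9 ± 6.01 CPM (SD, n = 4), or 3.30-fold, with a log2 fold change of 1.72 ± 0.26 (SE; edgeR adjusted p = 0.000122).

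The ratio of rgs5a to rgs5b counts within a library is free of the scaling. There were 11.8, 7.15, 8.19 and 10.6 rgs5a counts for each rgs5b count in WT 1 to WT 4, and 1.04, 0.606, 0.450 and 0.682 in klf1 1 to klf1 4. All WT ratios were far above all klf1 ratios. The ratios are not per length, so their shift between genotypes can be read but not which gene is more abundant. The log2 ratio went from 3.20 ± 0.33 to -0.59 ± 0.50 (SD, n = 4), a 13.8-fold shift (two-sided exact permutation p = 0.0286, the lowest value that 70 assignments can give, and 0.0429 adjusted over 3 ratios). The adjusted exact permutation p was 0.0857 with 0.1 in place of 0.5 added to the counts, without WT 3, and without each klf1 library in turn, while the unadjusted p was 0.0286 in each.

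rgs4, which also acts on Gq and Gi and marks brain pericytes in mice, was the member with the fewest counts among those tested. It read 13.4, 11.96, 8.45 and 5.15 CPM in WT and 3.91, 2.76, 2.90 and 3.69 CPM in klf1 libraries. The groups did not overlap, although WT 4 came close to the klf1 libraries. rgs4 fell from 9.73 ± 3.69 to 3.32 ± 0.57 CPM (SD, n = 4), or 2.93-fold, with a log2 fold change of -1.55 ± 0.27 (SE; edgeR adjusted p = 0.000376). With library totals rgs4 was still called lower (-0.83, edgeR adjusted p = 0.0126), but the groups then overlapped.

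In RefSeq's table of assembly GRCz12tu, rgs4 and rgs5a are neighbouring protein-coding genes, and rgs16 follows rgs5a. rgs16 read 0.378 to 1.24 CPM, with overlapping groups, and was not called (log2 fold change 0.28, edgeR adjusted p = 0.547), though it was with library totals (0.98, edgeR adjusted p = 0.0326). On the other side of rgs4 lies nos1apa, and next to rgs5b lies its paralog nos1apb. By the root mean square difference of log2 CPM deviations from each gene's own mean over 8 libraries, rgs4 and rgs5a were the closest pair of members (0.43). Pairs that are not neighbours were nearly as close, such as rgs5a and abcc9 (0.455) and tpm2 and rgs4 (0.513). The farthest pair was tagln and abcc9 (2.54). Over all tested genes the closest to rgs5a were zgc:165555 (0.19), the cytochrome P450 gene cyp1b1 (0.21) and agpat9l (0.21).

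**Figure D3:**
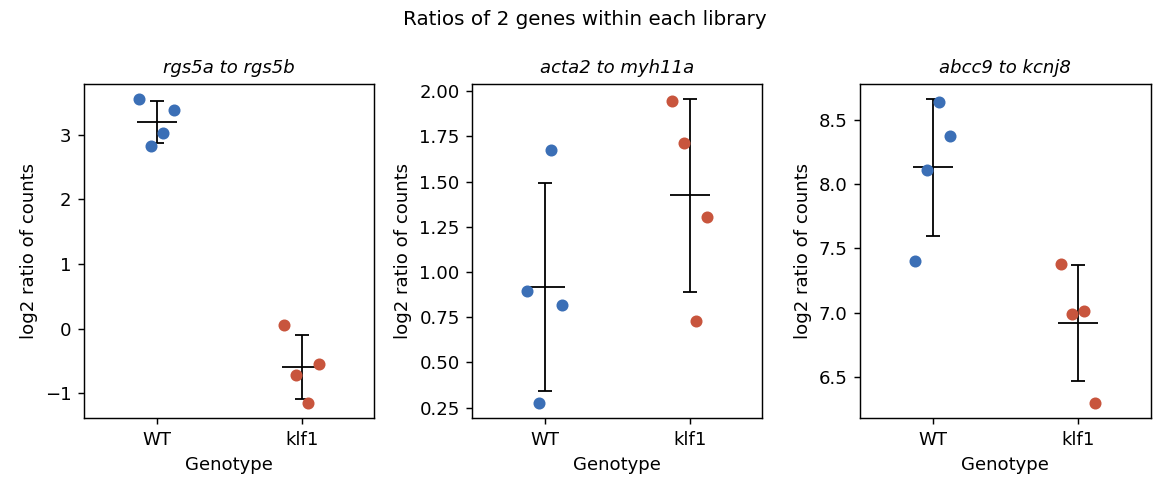
log2 ratio of the counts of 2 genes within each library, for rgs5a to rgs5b, acta2 to myh11a and abcc9 to kcnj8. Points are libraries and black bars the mean and SD over 4 libraries. The rgs5a to rgs5b ratios run from 2.83 to 3.55 in WT and from -1.15 to 0.06 in klf1 libraries, while the acta2 to myh11a ratios overlap.

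Smooth muscle actin and myosin kept no fixed ratio in either genotype. The acta2 to myh11a count ratios were 1.86, 1.21, 3.19 and 1.77 in WT and 3.86, 3.28, 1.66 and 2.47 in klf1 libraries. The log2 ratio differed by 0.51 between genotypes, less than the SD of 0.58 within WT (exact permutation test, two-sided p = 0.257, 0.257 adjusted over 3 ratios).

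abcc9 encodes the sulfonylurea receptor SUR2, the regulatory subunit of vascular and cardiac KATP channels, and was the member that fell most. It read 476, 538, 409 and 588 CPM in WT and 67.4, 96.0, 75.7 and 86.8 CPM in klf1 libraries. The lowest WT library was more than any klf1 library by a wide margin. abcc9 fell from 503 ± 77.5 to 81.5 ± 12.5 CPM (SD, n = 4), or 6.17-fold, with a log2 fold change of -2.62 ± 0.17 (SE; edgeR adjusted p = 1.73e-07). A lower fold change was found for 2.54% of tested genes. The summed level of all members ran from 648 to 840 CPM in WT and from 401 to 475 CPM in klf1 libraries, and without abcc9 from 239 to 355 and from 305 to 388 CPM.

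The other tested KATP subunits were also lower. kcnj8, the Kir6.1 pore of the vascular channel and the next protein-coding gene after abcc9, had only 8 to 24 counts in WT and 5 to 18 in klf1 libraries. Its level was 1.83 ± 0.74 and 0.679 ± 0.299 CPM (SD, n = 4). The groups overlapped, the log2 fold change was -1.40 ± 0.40 (SE; edgeR adjusted p = 0.00957), and with library totals the gene was not called (-0.69, edgeR adjusted p = 0.143). kcnj11, the Kir6.2 pore, fell from 13.97 ± 1.90 to 1.85 ± 0.42 CPM (means ± SD over 4 libraries; log2 fold change -2.91 ± 0.20 SE). abcc8, which encodes the receptor SUR1, fell from 20.7 ± 7.73 to 0.561 ± 0.197 CPM (-5.17 ± 0.35 SE). Of 3 tested subunits other than abcc9, 3 were lower, beside 29.4% of all tested genes. kcnj11l, matched but with too few counts to test, read 0.115 to 0.882 CPM in WT and 0.263 to 0.590 CPM in klf1 libraries. Its groups overlapped.

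Within a library abcc9 was on average lower relative to kcnj8 in klf1 hearts, though this rests on few kcnj8 counts. The log2 ratio went from 8.13 ± 0.53 to 6.92 ± 0.45 (SD, n = 4; two-sided exact permutation p = 0.0286, again the lowest possible, and 0.0429 adjusted over 3 ratios). The groups nearly touched, at 7.40 in WT 1 and 7.38 in klf1 1. Without the added 0.5 they overlapped, with 172 abcc9 counts for each kcnj8 count in WT 1 and 183 in klf1 1. With 0.1 instead of 0.5 added to the counts the exact permutation p was 0.0571. Without WT 3, or without any klf1 library, the exact permutation p was 0.0571 too.

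Cardiomyocyte markers moved with abcc9. Among 10 tested markers 9 fell and 0 rose (29.4% and 32.2% over all tested genes), with a median log2 fold change of -2.46. Their summed level ran from 204200 to 242800 CPM in WT and from 27290 to 43590 CPM in klf1 libraries. None of the 10 matched was at 0. Their part in the falls of abcc9, kcnj11 and abcc8, and in those of rgs4, rgs5a and tpm2, was not tested.

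pdgfrb, the receptor that pericytes need for recruitment, had 0 counts in all 8 libraries. A count of 0 allows up to 3 counts, or between 0.179 and 0.378 CPM, for counting error only. In all, 1086 listed genes were at 0 in every library. Among them were ba1 and ba2, beta-globin genes of red blood cells, in libraries where the alpha-globin gene hbaa1 read 827 ± 280 CPM in WT and 739 ± 161 CPM in klf1 hearts (SD, n = 4). Why these entries were at 0 was not tested. No fold change or ratio with pdgfrb could be given. The neighbouring gene csf1ra, a macrophage receptor of the same kinase family, was detected in every library, at 26.0 to 31.7 CPM in WT and 78.9 to 120 CPM in klf1 hearts.

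Ligands and receptors of the PDGF system were read next. Of 8 listed besides pdgfrb, 4 were matched and tested, and 3 were higher and 0 lower (32.2% and 29.4% over all tested genes). The PDGF-A ligand gene pdgfab read 1.84, 1.64, 1.57 and 1.84 CPM in WT and 24.0, 22.9, 29.1 and 29.8 CPM in klf1 libraries, with no overlap (log2 fold change 3.93 ± 0.17 SE, edgeR adjusted p = 1.88e-08). pdgfaa rose from 1.18 ± 0.33 to 9.38 ± 2.80 CPM (SD, n = 4; 2.98 ± 0.29 SE) and pdgfrl, a receptor-like protein, from 47.9 ± 7.07 to 78.2 ± 5.46 CPM (0.71 ± 0.13 SE). pdgfra, the receptor for PDGF-A on fibroblasts, stood at 55.5 ± 10.4 and 64.8 ± 19.8 CPM (SD, n = 4) and was not called (edgeR adjusted p = 0.391), but was called higher with library totals (0.94, edgeR adjusted p = 0.00385). The listed PDGF-B symbols, pdgfba and pdgfbb, were not among the matched genes, so PDGF-B could not be read.

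Other contractile and cytoskeletal genes of smooth muscle were mostly higher. Of 40 listed, 25 were matched and 19 tested, with 13 higher, 3 lower and a median log2 fold change of 0.85. Matched but with too few counts to test were cnn1a, itga8, csrp1b, pdlim7, tagln3a and desmb. Over all tested genes 32.2% were higher and 29.4% lower, with a median of 0.03. actn1, the actin crosslinker alpha-actinin of non-muscle and smooth muscle cells, rose from 37.4 ± 5.47 to 340 ± 70.1 CPM (SD, n = 4; 3.18 ± 0.19 SE). myl6, a light chain of smooth and non-muscle myosin, rose from 29.7 ± 7.17 to 249 ± 50.1 CPM (3.07 ± 0.20 SE). The calponin cnn2 rose from 72.2 ± 6.54 to 285 ± 69.98 CPM (1.98 ± 0.18 SE), and the regulatory light chain myl9b from 2390 ± 269 to 3827 ± 608 CPM (0.68 ± 0.17 SE). Many cell types besides smooth muscle use these proteins. The 3 lower genes were the tropomyosin tpm4a, from 15100 ± 2005 to 4415 ± 573 CPM (-1.77 ± 0.18 SE), the smoothelin-like gene smtnl (-1.15) and the vinculin gene vcla (-1.51). The last 2 were named after their values were seen. In WT, cardiomyocyte markers had means from 287 CPM (myh6) to 113000 CPM (vmhcl). The WT mean of tpm4a lay between those of the markers tnnt2a (11230 CPM) and cmlc1 (18960 CPM). The part of cardiomyocyte RNA in the level of tpm4a was not tested.

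Another transgelin gene of the list, tagln2, is also used outside muscle. It rose from 78.3 ± 8.56 to 141 ± 24.1 CPM (means ± SD over 4 libraries; log2 fold change 0.85, edgeR adjusted p = 0.00028). The related gene tagln3b was called higher too, from 0.121 to 2.29 CPM (log2 fold change 4.12, edgeR adjusted p = 6.44e-05), on few counts in WT. Both genes were picked after their values were seen. The differences between their rises and that of tagln were not tested.

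Regulators of vessel tone moved in both directions. Of 32 listed, 19 were matched and 16 tested, with 3 higher, 9 lower and 4 not called, and a median of -0.85. Over all tested genes 32.2% were higher and 29.4% lower. With library totals this list turned to 6 higher and 3 lower, beside 6836 higher and 1398 lower of all 10493 tested genes. Among the lower genes, the calcium channel pore cacna1c fell from 374 ± 38.2 to 87.8 ± 22.3 CPM (SD, n = 4; -2.09 ± 0.18 SE). The part of cardiomyocyte RNA in the level of cacna1c was not tested. prkg1a, the cGMP-dependent kinase that relaxes smooth muscle, fell from 11.1 ± 4.75 to 2.97 ± 0.48 CPM (-1.89 ± 0.28 SE), and pde5ab, which breaks down cGMP, from 4.72 ± 1.65 to 1.19 ± 0.25 CPM (-1.98 ± 0.32 SE). Among the higher genes, ppp1r14bb had the weakest call and does not stand for the others. This phosphatase inhibitor gene, named after its values were seen, read 51.8 ± 7.22 and 65.7 ± 8.43 CPM (SD, n = 4; log2 fold change 0.34, edgeR adjusted p = 0.0494). Its call was lost without WT 1 (edgeR adjusted p = 0.128) and under several other alternatives.

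Further markers of pericytes and mural cells went both ways. Of 26 listed, 16 were matched and 11 tested, with 3 higher, 4 lower and 4 not called and a median of 0.28. Over all tested genes 32.2% were higher and 29.4% lower, so these counts do not set the list apart. Lower were cd248a (endosialin), from 404 ± 45.5 to 80.9 ± 27.5 CPM (SD, n = 4; -2.32 ± 0.23 SE), the hypoxia factor epas1b (-1.56 ± 0.16 SE), the ectonucleotidase nt5e (-1.23 ± 0.16 SE) and kcnj8. Higher were mcamb, an adhesion molecule also made by endothelium, from 1027 ± 123 to 1575 ± 57.5 CPM (0.62 ± 0.15 SE), and tbx18, a factor of mural and epicardial cells (1.27 ± 0.18 SE). The potassium channel subunit kcne4 was the third, at 6.08 ± 2.34 and 21.1 ± 8.39 CPM (SD, n = 4; 1.80, named after its values were seen). notch3, the Notch receptor of mural cells, was not called, at 75.7 ± 37.5 and 91.7 ± 30.5 CPM (edgeR adjusted p = 0.536). With library totals 7 were higher and 3 lower, beside 6836 and 1398 of all 10493 tested genes. Among the 7 was notch3 (0.995, edgeR adjusted p = 0.0285).

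anpepa, which encodes aminopeptidase N and is in the same list, was the tested gene with the profile closest to that of acta2 over the 8 libraries. Its root mean square difference was 0.12 on the log2 scale, followed by phospho2 and det1 (both 0.16). With 378 counts in all, anpepa was picked as the nearest of 10493 tested genes. Whether the match is closer than such a search gives by chance was not tested. anpepa read between 2.90 and 4.26 CPM in WT and between 3.18 and 5.26 CPM in klf1 hearts and was not called (edgeR adjusted p = 0.193), but like acta2 was called higher with library totals (1.06, edgeR adjusted p = 0.000954).

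Factors upstream of smooth muscle genes went both ways, with 2 of 15 tested higher and 5 lower and a median of 0.10. Over all tested genes 32.2% were higher and 29.4% lower. The serum response factor gene srfb fell from 40.7 ± 6.50 to 9.90 ± 1.48 CPM (SD, n = 4; -2.04 ± 0.16 SE), and smad3b, a TGF-beta signal carrier, from 55.3 ± 11.5 to 18.2 ± 2.38 CPM (-1.60 ± 0.17 SE). The ligand tgfb2 (-1.19 ± 0.14 SE) and the factor gata6 (-0.90 ± 0.17 SE) fell too. The 2 higher genes, named after their values were seen, are related to these: smad3a (0.62, edgeR adjusted p = 0.00568) and the ligand tgfb3 (0.62, edgeR adjusted p = 0.00299). srfa, the paralog of srfb, was not called (-0.01, edgeR adjusted p = 0.951), but was called higher with library totals (0.70, edgeR adjusted p = 0.0038). With library totals 10 were higher and 3 lower, beside 6836 and 1398 of all 10493 tested genes. On that scale gata6 was not called (-0.19, edgeR adjusted p = 0.365).

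Elastic matrix genes, listed for the outflow tract but read in whole hearts, were mostly higher. Of 17 listed, 12 were matched and 11 tested, with 9 higher and 1 lower (32.2% and 29.4% over all tested genes) and a median of 1.09. The lower gene was emilin1a (-0.99), whose call was lost with library totals (-0.27, edgeR adjusted p = 0.14). Elastin a (elna) rose from 40.2 ± 13.3 to 158 ± 44.4 CPM (SD, n = 4; 1.98 ± 0.26 SE), emilin1b from 18.2 ± 1.36 to 68.1 ± 16.4 CPM (1.90 ± 0.18 SE), and ltbp3, which stores TGF-beta in the matrix, from 187 ± 41.7 to 482 ± 110 CPM (1.36 ± 0.21 SE). The crosslinking enzyme lox rose by 3.11 ± 0.35 (SE) on the log2 scale from a WT mean of 0.449 CPM, where 3 counts are 0.345 to 0.378 CPM, so the size is imprecise. Without some single libraries, or with limma-voom, fbln5 and fbn2b lost their calls. elnb, elastin b, was named after its values were seen. It read 15.7 CPM in WT 1, 5.16, 2.65 and 4.54 CPM in WT 2 to WT 4, and 2.002 to 5.95 CPM in klf1 libraries. elnb was not called (edgeR adjusted p = 0.213).

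Macrophage and granulocyte markers, among which mfap4 is shared with the elastic list, were higher for 7 of 9 tested and lower for 0, with summed levels of 91.1 to 153 CPM in WT and 432 to 557 CPM in klf1 libraries. Of 8 tested epicardial markers 5 were higher and 1 lower (3174 to 3720 and 4609 to 6439 CPM). Of 12 tested endothelial markers 1 was higher and 5 lower (1830 to 2754 and 2003 to 3541 CPM). The higher gene, vwf, was the largest part of these sums, at 650 to 1225 CPM in WT and 1079 to 2375 CPM in klf1 libraries. The endothelial sums therefore do not show how the other markers moved. No matched marker of these 3 lists was at 0. Of 5 tested red blood cell markers 0 were higher and 1 lower (765 to 1532 and 739 to 1266 CPM), and ba1 and ba2 were at 0. These counts stand beside 32.2% higher and 29.4% lower over all tested genes. The part of these cell types in the results above was not tested.

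The RGS family besides the members also split. The symbol pattern gave 18 genes, of which 14 were tested, 6 higher and 4 lower (32.2% and 29.4% over all tested genes), with a median of 0.45. Without rgs7bpa and rgs7bpb, which encode partners that bind RGS7 rather than RGS proteins, 5 were higher and 4 lower. rgs8 rose from 1.06 ± 0.45 to 18.9 ± 7.33 CPM (SD, n = 4; 4.14 ± 0.37 SE) and rgs7bpa from 3.52 ± 0.59 to 11.8 ± 4.19 CPM (1.74 ± 0.26 SE). rgs17 fell from 17.0 ± 4.04 to 3.70 ± 0.97 CPM (-2.20 ± 0.23 SE), rgs6 from 32.4 ± 12.01 to 10.4 ± 1.93 CPM (-1.64 ± 0.25 SE), and rgs3a and rgs12b by less (-0.55 and -0.43). The fold change of rgs8 is imprecise, since its WT level rests on few counts. With library totals 10 were higher and 2 lower, beside 6836 and 1398 of all 10493 tested genes. On that scale rgs3a (0.17) and rgs12b (0.28) changed sign without a call.

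**Figure D4:**
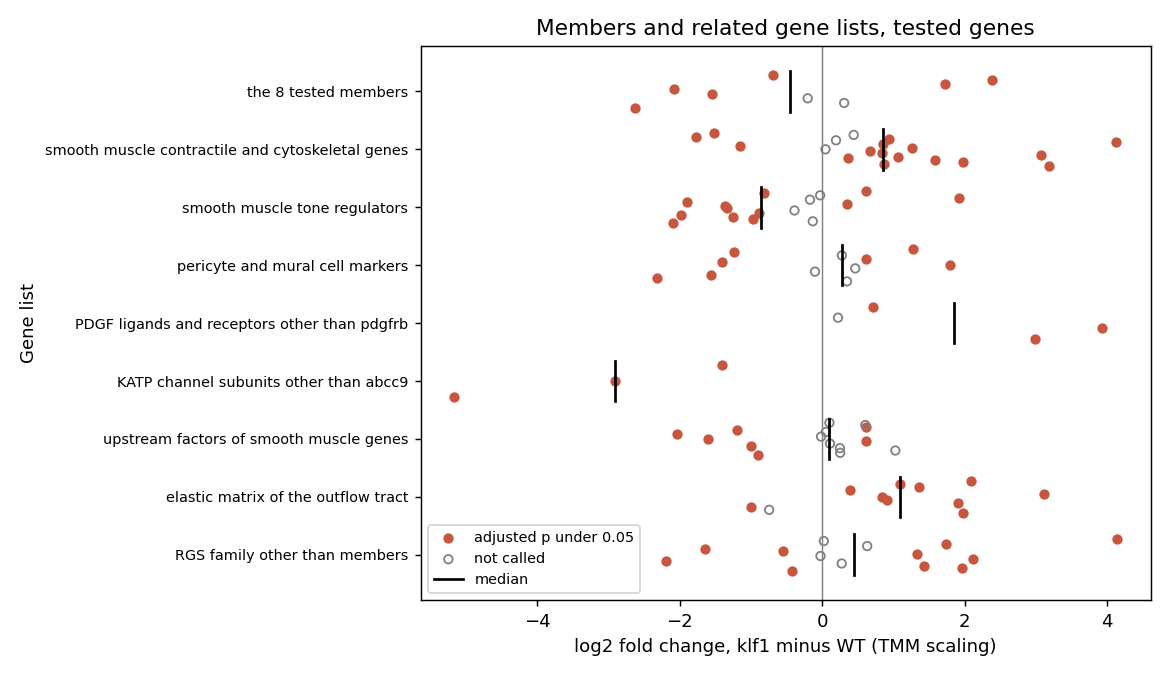
log2 fold change (klf1 minus WT, TMM scaling) of every tested gene in each list, one row per list. Red points passed an adjusted p under 0.05, open points did not, and black lines are medians. The 8 members spread from -2.62 to 2.39, the tested KATP subunits all lie below 0, and most contractile and elastic matrix genes lie above 0.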

How the data were processed

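The values used are raw counts per gene and library, deposited by the authors as whole numbers without normalization or pooling, per the file headers. Per the labels' protocols, Qiagen miRNeasy kits yielded the RNA and Kapa stranded mRNA kits the libraries. The submitters' processing notes name danRer10, Bowtie2 2.2.8 and deepTools 3.1.2 without their roles. For the RNA reads, aligner, counter, annotation and strandedness of counting: not given in the sources used here. Counts came from the file of each library. In these files 11 symbols were written as dates, and the joint table supplied them. The other 27 of 35 samples were not analysed here.

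Counts were fitted in R 4.3.3 with edgeR 4.0.16 (filterByExpr, TMM factors, robust glmQLFit, glmQLFTest, two-sided, intercept and genotype), with Benjamini-Hochberg adjustment over all 10493 tested genes. The approximate SE is the absolute log2 fold change over the root of the F statistic. CPM is TMM scaled. Ratios used log2 of counts plus 0.5. No library repeated another: within genotypes, chi-square values over genes were at least 6.71 times their degrees of freedom. Members and lists were chosen with earlier results of these data known. Named were all members, klf1, up to 4 genes per list with the smallest p and up to 2 with the highest expression, and the 3 nearest profiles of acta2 and rgs5a (abcc9 was added later). Some genes of the tone list that the rule names are not reported here; they include the one with the smallest p, which was higher, so the genes named there lean to the lower side. Genes outside this rule are given as such or as a list's exceptions. Alternatives were other scalings (library totals, upper-quartile and DESeq2 size factors, TMM without red blood cell and the 50 most counted genes), filters and tests (DESeq2 1.42.0, limma-voom with limma 3.58.1, edgeR without robust estimation), leaving out each library, and, added after seeing the data, a replicate block. Gene neighbours came from RefSeq's table, in which 9 of 9 members matched. Its build differs, so no coordinates are given.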

Additional observations from a re-analysis of the deposited data

Results flagged for a closer look

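In each genotype, the highest and lowest of 4 libraries were compared with the others for 56 named genes and 3 ratios, 118 groups in all. By chance about 1 in 20 groups would hold a library this far from the rest, and 3 did. cacna1c read 121 CPM in klf1 2, with the nearest other klf1 library at 80.1 CPM. rgs7bpa read 2.65 CPM in WT 2, with the nearest other WT library at 3.74 CPM. prkag2a read 63.9 CPM in klf1 2, with the nearest other klf1 library at 55.2 CPM. No value of a member stood apart in this way, including the low tagln level of klf1 2.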

How the results depend on the processing

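tagln, rgs4, rgs5a, rgs5b and abcc9 kept their direction and call under all 18 alternatives each. Library totals moved most: 6836 genes were then called higher and 1398 lower, acta2 was called higher (1.03), and the log2 fold changes of myh11a (0.52) and tpm2 (0.022) changed sign, neither of them called. tpm2 kept its call under the other 17. Without single libraries acta2 ranged from 0.19 to 0.46 and was called without WT 1 alone. The rgs5a to rgs5b log2 ratio ranged from -4.00 to -3.60 without single libraries, and that of abcc9 to kcnj8 from -1.45 to -1.003. With 0.1 added to counts they were -3.80 and -1.19, each with an adjusted exact permutation p of 0.0857. For rgs5a to rgs5b the unadjusted exact permutation p stayed at 0.0286, the smallest possible, so the lost call follows from the adjustment over 3 ratios; this also held without WT 3 or any klf1 library. For abcc9 to kcnj8 the unadjusted exact permutation p was 0.0571. The planned ratio of acta2 to pdgfrb could not be computed, because pdgfrb had 0 counts. The labels share no number between genotypes, but column names of the joint table do. Same-numbered libraries did not deviate together (correlations -0.079, 0.079, -0.187 and 0.093 over genes). The highest correlation was between the WT column numbered 3 and the klf1 column numbered 1 (0.336). With 4 libraries per genotype these values cannot show whether same-numbered libraries shared a batch. A replicate block on the column number, added after seeing the data, gave 3215 genes higher and 2896 lower and changed no call of a member. Few counts in either or both genotypes limit the precision for kcnj8, abcc8, lox, rgs8, rgs16 and pdgfaa, among others.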

Other observations

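The genes with profiles closest to that of abcc9 over the 8 libraries were jph1a, gys1 and prkag2a, with root mean square differences of 0.08, 0.12 and 0.14 on the log2 scale. jph1a encodes a junctophilin, which ties the surface membrane of muscle cells to the calcium store, gys1 muscle glycogen synthase, and prkag2a a subunit of the energy sensor AMPK. jph1a fell from 283 ± 44.4 to 43.0 ± 5.96 CPM (SD, n = 4; edgeR adjusted p = 9.56e-08), gys1 from 409 ± 68.8 to 68.0 ± 9.63 CPM and prkag2a from 357 ± 47.3 to 56.6 ± 4.90 CPM. This look at abcc9 was added after its values were seen.

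WT 3 and klf1 1 held the lowest levels of their genotype for several genes of different cell types. Among mural genes these were myh11a (30.9 and 29.9 CPM), notch3 (32.1 and 50.9 CPM), foxc1a (30.2 and 30.8 CPM) and foxc1b (16.2 and 18.2 CPM). The endothelial markers kdrl (253.8 and 139.7 CPM), cdh5 (346.5 and 348.1 CPM), vwf (650.1 and 1079 CPM) and nfatc1 (59.5 and 37.7 CPM) showed it too, as did the fibroblast markers fn1b (262 and 706 CPM) and col1a1a (239 and 374 CPM). acta2 did not, being lowest in WT 2 and klf1 3. The same held for anpepa, which was picked for its likeness to acta2. Other genes of the same lists went the other way. tagln (27.02 and 165 CPM), postnb (22.8 and 88.7 CPM) and dpt (31.7 and 21.0 CPM) were highest of their genotype in WT 3 and klf1 1. pecam1 (30.1 CPM) and egfl7 (61.9 CPM) were highest of the klf1 libraries in klf1 1. All these genes were picked after their values were seen, and neither pattern was tested.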
